A study of Mus musculus with 5 samples.

Results

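Gata2, Gata3, Gata4, Gata5 and Gata6 are the Gata transcription factor genes that lie on mouse autosomes. They were chosen by name and make up 5 of the 21728 protein-coding genes of GENCODE M21 on the autosomes and the X chromosome. The measurement is chromatin immunoprecipitation and sequencing (ChIP-seq) of trimethylated lysine 27 on histone H3, H3K27me3, in dermal fibroblasts of late mouse embryos that had been expanded in culture. The deposited data are lists of broad peaks, stretches of the genome enriched for the mark, for Kdm6b-cKO replicates 3 and 4 and for WT replicates 7 and 9. In Kdm6b-cKO mice, floxed Kdm6b alleles (Kdm6b fl/fl) are deleted by Dermo1-Cre, a recombinase expressed from the Dermo1 (Twist2) gene in the dermal lineage. For WT the labels give the wild type name alone, and both groups grew in AmnioMAX medium. The methods place the study's mice on a C57BL/6 background. The labels describe a sort for GFP for every sample, although they present GFP as the sign of the knockout. The question put by the comparison is how the mark is distributed when its demethylase is lost. Neither the labels nor the methods state that the replicates were separate embryos, so a p-value measures the spread between libraries, which may be technical.

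Gata factors recognise the DNA word GATA through a pair of zinc fingers and set cell identity in many lineages. Gata2 acts in blood stem cells and endothelium, and Gata3 acts in T cells, in the hair follicle and in other ectodermal tissues. Gata4, Gata5 and Gata6 act in heart, endoderm and gonad. H3K27me3 is laid down by Polycomb repressive complex 2 and marks silenced developmental genes. Kdm6b, also called Jmjd3, is a histone demethylase that takes the methyl groups off.

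The lists as a whole set the scale for the Gata genes. They held 44084 and 40577 peaks for the Kdm6b-cKO libraries and 29848 and 22607 peaks for the WT libraries. On the autosomes and the X chromosome the peaks covered 148.3 and 123.9 Mb in Kdm6b-cKO, and 91.4 and 61.5 Mb in WT. Peak calling followed subsampling of the libraries to a like read number, and the reads behind each peak are not in the lists, so values are given without counting intervals. The promoter of Kdm6b itself carried no peak in any library, and peaks do not show its deletion. None of 9 fibroblast marker promoters, Col1a1, Col3a1, Dcn and Pdgfra among them, held 500 bp of the mark in any library.

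The promoter sequences of Gata5 and Gata3 are shown because the largest difference between genotypes among the 5 genes lay around the one start and a break in the mark lay at the other. Both come from the RefSeq promoter table of GRCm38.p6, the assembly behind mm10, and run from 250 bases before the start to 50 bases after it. Capitals mark CpG dinucleotides. Gata4 and Gata6 have no entry in that table. The Gata5 window is on the minus strand at chr2:180334630-180334929 and the Gata3 window is on the minus strand at chr2:9878551-9878850.
Gata5: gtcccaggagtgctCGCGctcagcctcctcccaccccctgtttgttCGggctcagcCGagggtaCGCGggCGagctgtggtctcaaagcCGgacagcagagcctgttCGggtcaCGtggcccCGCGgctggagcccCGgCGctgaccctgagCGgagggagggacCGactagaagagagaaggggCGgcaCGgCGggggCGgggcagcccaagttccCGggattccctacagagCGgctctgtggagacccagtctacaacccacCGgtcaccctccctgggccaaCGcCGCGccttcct
Gata3: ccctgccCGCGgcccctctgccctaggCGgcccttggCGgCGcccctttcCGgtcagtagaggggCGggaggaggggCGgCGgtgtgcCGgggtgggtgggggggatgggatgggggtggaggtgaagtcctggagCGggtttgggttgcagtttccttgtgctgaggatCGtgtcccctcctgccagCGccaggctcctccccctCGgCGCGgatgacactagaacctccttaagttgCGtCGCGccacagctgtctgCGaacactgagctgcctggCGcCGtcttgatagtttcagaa

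Both windows are rich in CpG. The Gata5 window holds 26 CpG and the Gata3 window 22, against a median of 7 over 32851 RefSeq promoters of 300 bases. The Gata2 windows in the table, at 2 of its starts, hold 32 and 29. Forms of the GATA word were searched on both strands, namely AGATAA or AGATAG, which begin with an A, and TGATAA or TGATAG, which begin with a T. They matched the Gata3 window 1 time and the Gata5 and Gata2 windows not at all, and 29.8% of the promoters in the table hold at least 1 match. All 300 bases of the Gata5 window and of both Gata2 windows lay inside a peak in each of the 4 libraries. The Gata3 window lay outside peaks in Kdm6b-cKO replicates 3 and 4 and in WT replicate 7, and wholly inside a peak in WT replicate 9.

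At the 5′ end, 4 of the 5 promoters were wholly covered by the mark in both genotypes. A promoter here is the span from 3 kb before to 3 kb after the 5′ end of the gene (the transcription start site, TSS, of its GENCODE record). Gata2, Gata3, Gata5 and Gata6 were covered over 100% of this span in all 4 libraries. Such full cover in every library was found at 637 (10.2%) of the 6251 promoters that had at least 500 bp of the mark in at least 1 library, and at a full promoter no gain can be measured. The Gata4 promoter was covered over 88.1% and 89.5% in Kdm6b-cKO replicates 3 and 4, against 100% and 92.6% in WT replicates 7 and 9. Both Kdm6b-cKO values were thus below both WT values, an order seen at 2.42% of the promoters tested, while the reverse order was seen at 49% of them. The difference at Gata4 was -7.51 ± 3.42 percentage points (SE, n = 2 each) and did not pass limma with Benjamini-Hochberg adjustment over all promoters (adjusted p = 0.343). It was -3.79 percentage points without WT replicate 7 and -11.2 without WT replicate 9. Measured from the start of the principal transcript instead, the Gata4 promoter was covered over 100% in all 4 libraries, whereas that of Gata3 was covered over 73.3% and 69.6% in Kdm6b-cKO, against 73.6% and 81.9% in WT. In the test from the 5′ end of the gene, 7.93% of promoters were called higher and 0.096% lower in Kdm6b-cKO, and none of the 5 Gata promoters was called. The median difference over all promoters tested was 11.7 percentage points, against 0 over the 5 Gata promoters.

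**Figure D1:**
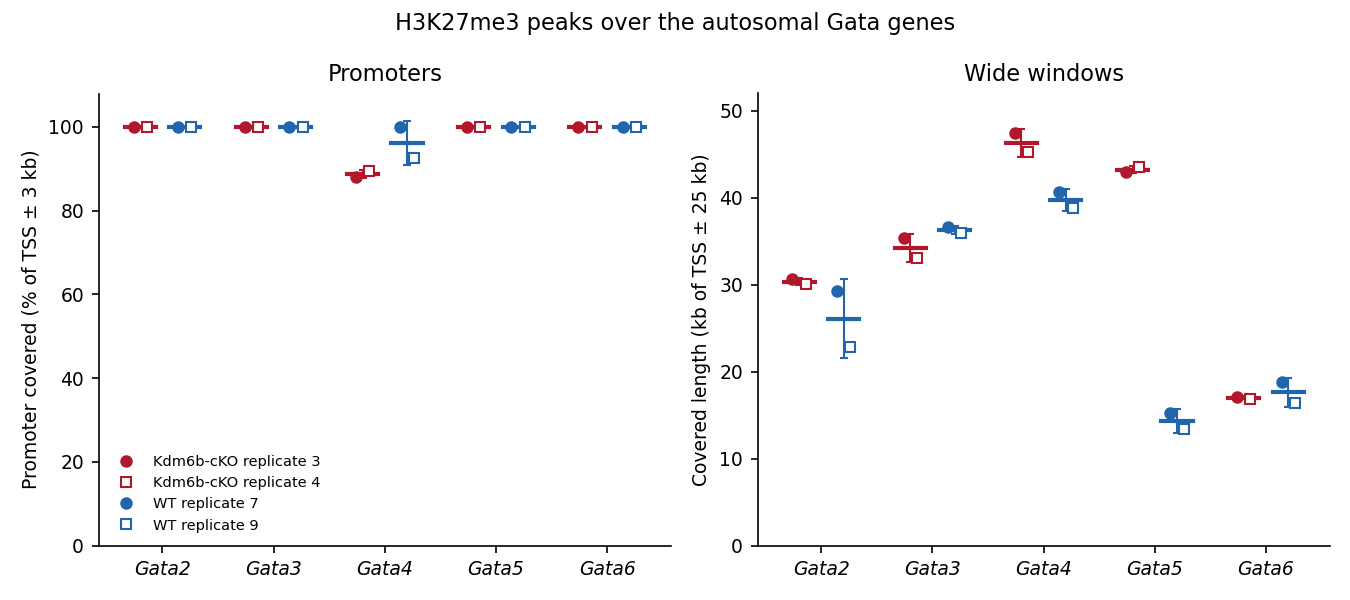
Cover of the 5 Gata genes by H3K27me3 peaks in each library, as a percentage of the promoter (left) and as length in kb within 25 kb of the start (right). Symbols are libraries, horizontal bars are group means and vertical bars are SD (n = 2). At the promoters only Gata4 was below 100% in any library, and within 25 kb Gata5 had 42.95 and 43.5 kb in Kdm6b-cKO, against 15.3 and 13.4 kb in the WT libraries.

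Around the promoters the genes parted, and Gata5 was the member with the longest gain. Gata5 is a cardiac and endodermal factor, encoded on the minus strand of chromosome 2 from 180325133 to 180334699 (mm10). Within 25 kb of its start, peaks covered 42.95 and 43.5 kb in Kdm6b-cKO replicates 3 and 4, against 15.3 and 13.4 kb in WT replicates 7 and 9. Both Kdm6b-cKO libraries were above both WT libraries with a wide space between the groups. An order of this kind was met at 65.3% of the 11829 windows tested, so the order alone does not set Gata5 apart. The means were 43.2 ± 0.413 kb in Kdm6b-cKO and 14.35 ± 1.37 kb in WT (SD, n = 2 each), a ratio of 3.01. The difference of 28.9 ± 0.997 kb (SE) passed limma (adjusted p = 0.0240), and 7.69% of windows were called higher. The difference took rank 20 by size among the 11829 windows, where the median difference was 2.41 kb. In these bulk cultures, a mark present in more cells and a mark that is longer in each cell cannot be told apart.

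The call at Gata5 depended on the libraries and on the peak lists' length, whereas its direction did not. The adjusted p was 0.105 without Kdm6b-cKO replicate 3, 0.0859 without Kdm6b-cKO replicate 4 and 0.121 without WT replicate 9, with differences from 27.9 to 29.9 kb over all 4 omissions, and it was 0.0552 when genes under the minimum of 500 bp were kept in the test. When each list was cut to its strongest peaks so that all covered the same length, Gata5 had 23.0 and 20.8 kb in Kdm6b-cKO, against 11.9 and 13.4 kb in the WT libraries, and the difference was 9.24 kb (adjusted p = 0.0674).

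The added cover at Gata5 lay on both sides of the start. Upstream, peaks covered 23.8 and 22.6 of 25 kb in Kdm6b-cKO, against 10.8 and 9.08 kb in the WT libraries. Downstream, they covered 19.1 and 20.9 kb in Kdm6b-cKO, against 4.48 and 4.30 kb in the WT libraries. The groups did not overlap on either side. The gene itself, 9.57 kb long, was covered from end to end in both Kdm6b-cKO libraries, against 3.48 and 4.30 kb of it in WT. Taken base by base, 11.9 kb of the window was covered in all 4 libraries, 24.2 kb in both Kdm6b-cKO libraries and neither WT library, none in both WT libraries alone, and 3.18 kb in no library.

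The peak that spans the Gata5 start was also stronger in the Kdm6b-cKO lists. It was 23.0 and 20.8 kb long in Kdm6b-cKO, against 11.9 and 9.04 kb in the WT libraries. Its mean fold over local background, as the authors' peak caller gave it, was 4.73 and 4.78 in Kdm6b-cKO and 3.90 and 4.03 in WT. Its −log10 q was 11.2 and 11.5 in Kdm6b-cKO and 6.85 and 6.56 in WT. The start peaks of Gata2 and Gata6 were stronger in both Kdm6b-cKO lists as well. At Gata2 the −log10 q was 16.4 and 12.95 in Kdm6b-cKO and 9.79 and 9.60 in WT. At Gata6 it was 11.5 and 11.8 in Kdm6b-cKO and 9.93 and 8.51 in WT. For Gata3 and Gata4 the groups overlapped in −log10 q. Placed within its own list, the Gata6 peak was above 98.74% and 99.05% of peaks in Kdm6b-cKO, against 98.96% and 98.66% in WT. By this rank the groups overlapped at Gata6 too. At Gata2 they did not, with 99.82% and 99.41% in Kdm6b-cKO, against 98.9% and 99.23% in WT. These strength values come from separate calls on each library and were not tested. How often start peaks of other genes show this order was not counted. Among the 5 genes the Gata5 start peak had the lowest −log10 q of all in each WT list. Even so, it was stronger there than at least 96.4% of the peaks in its list.

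The cover of Gata5 spread far beyond 25 kb in Kdm6b-cKO. Within 100 kb it reached 99.1 and 117.4 kb in Kdm6b-cKO replicates 3 and 4, against 23.3 and 19.1 kb in WT replicates 7 and 9, a ratio of 5.103. The difference of 87.0 kb took rank 29 by size among the 16946 windows of this width. Once peaks less than 3 kb apart were joined, the stretch over the start ran for 51.0 and 99.4 kb in Kdm6b-cKO and for 13.3 and 15.7 kb in WT. Kdm6b-cKO replicate 4 owed its longer stretch to the upstream side. A longer stretch was not a trait of Gata5 alone. Joined by the same rule, the Gata4 stretch spanned 126.6 kb in Kdm6b-cKO replicate 3 and 172.8 kb in Kdm6b-cKO replicate 4. WT replicates 7 and 9 had 48.9 and 47.1 kb there. For Gata2 the Kdm6b-cKO stretches were 59.8 and 29.2 kb, and the WT stretches were 28.3 and 22.9 kb. At Gata3 and Gata6 both Kdm6b-cKO stretches were shorter than both WT stretches.

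**Figure D2:**
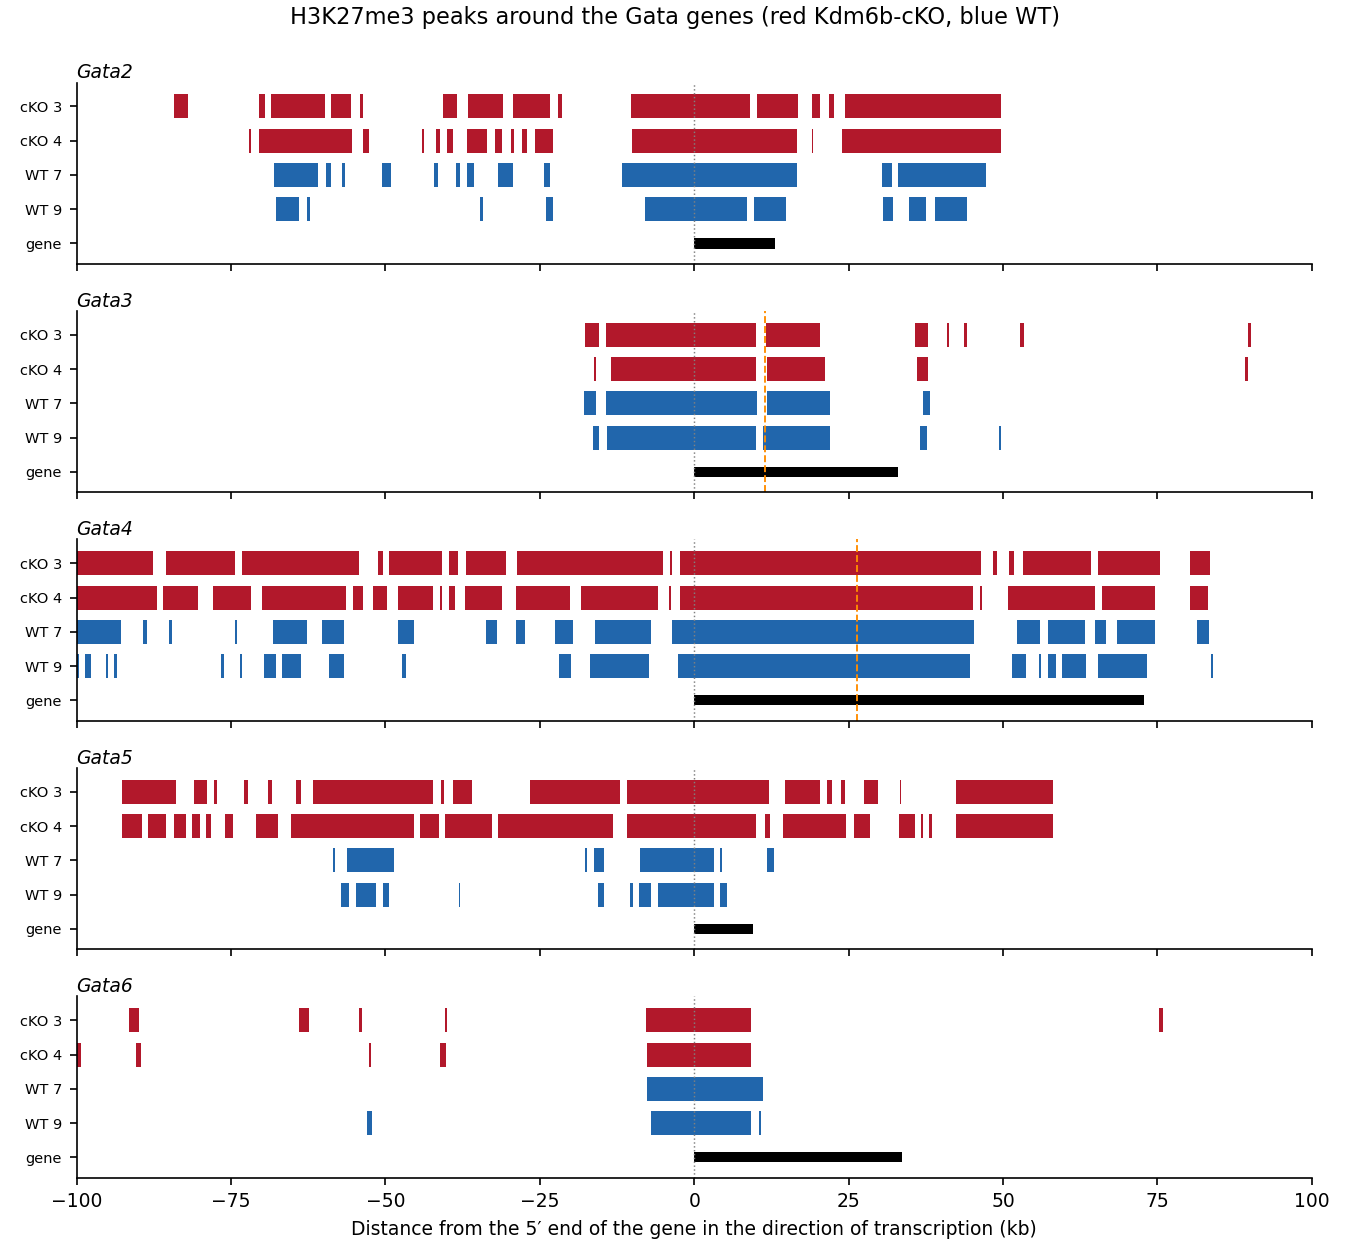
Peaks within 100 kb of the 5′ end of each Gata gene, by distance in kb in the direction of transcription. Boxes are peaks of each library (Kdm6b-cKO 3 and 4 above WT 7 and 9), black bars are genes, dotted lines are gene starts and dashed lines are the starts of the principal transcripts of Gata3 and Gata4. Around Gata5 the Kdm6b-cKO peaks fill most of the 50 kb window. The WT peaks in that window sit near the start, and both WT libraries hold further peaks about 50 kb upstream. Gata3 and Gata6 hold compact domains of like extent in all 4 libraries.

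Gata4, another cardiac and gonadal factor, carried the longest domain of the family in both genotypes. It lies on the minus strand of chromosome 14 from 63198922 to 63271692. The peak over its 5′ end was 48.75 and 47.6 kb long in Kdm6b-cKO, against 48.9 and 47.1 kb in the WT libraries, so its length overlapped between the groups. By length it took ranks 117 and 80 in the Kdm6b-cKO lists and ranks 48 and 29 in the shorter WT lists. In all 4 libraries it also held the start of the principal transcript, which lies 26.4 kb inside the gene.

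In the 25 kb window the gain at Gata4 lay upstream of this peak, on the side with room to gain. Within 25 kb of the 5′ end, peaks covered 47.5 and 45.2 kb in Kdm6b-cKO replicates 3 and 4, against 40.7 and 38.9 kb in WT replicates 7 and 9. The groups did not overlap, but the difference of 6.58 ± 1.28 kb (SE, n = 2 each) did not pass limma (adjusted p = 0.0692). Downstream, the whole 25 kb was covered in every library, so no gain could be measured there. Upstream, peaks took up 22.5 and 20.2 kb in Kdm6b-cKO, against 15.7 and 13.9 kb in the WT libraries, so the whole difference lay on this side. With the window set on the principal start instead, the difference was 1.97 kb. Over the gene itself, 72.8 kb long, peaks covered 66.4 and 66.3 kb in Kdm6b-cKO, against 61.1 and 59.7 kb in the WT libraries. Within 100 kb of the 5′ end, cover was 158.2 and 150.5 kb in Kdm6b-cKO, against 104.0 and 85.25 kb in the WT libraries, again with no overlap, an order found at 74.8% of the 16946 windows of this width. The difference of 59.7 kb took rank 276 among them. The ratio of the means was 1.63, below the 1.75 of the cover summed over all windows of this width.

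Gata6, which acts in heart and endoderm as well, varied little in cover. It lies on the plus strand of chromosome 18 from 11052064 to 11085635. Peaks covered 17.1 and 16.9 kb within 25 kb of its start in Kdm6b-cKO, against 18.8 and 16.5 kb in the WT libraries. The Kdm6b-cKO values fell between the WT values, and the difference was -0.598 ± 1.09 kb (SE, n = 2 each, limma adjusted p = 0.710) and turned to 0.556 kb without WT replicate 7. The whole of the Kdm6b-cKO cover was a single peak over the start that began 7.87 and 7.62 kb upstream and ended 9.26 and 9.28 kb downstream. In WT this peak began 7.60 and 6.93 kb upstream. No base between 10 and 25 kb upstream was covered in any library, and 31.0 kb of the window was covered in none. Within 100 kb the cover was 22.0 and 19.7 kb in Kdm6b-cKO, against 18.8 and 17.3 kb in the WT libraries, so most of it lay in the domain over the start.

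Gata2, the blood and endothelial factor, had its lowest cover in WT replicate 9. It lies on the plus strand of chromosome 6 from 88193891 to 88207032. Within 25 kb of its start, peaks covered 30.6 and 30.05 kb in Kdm6b-cKO replicates 3 and 4, against 29.3 and 22.9 kb in WT replicates 7 and 9. Both Kdm6b-cKO libraries were higher, although WT replicate 7 lay just below Kdm6b-cKO replicate 4 and WT replicate 9 was low. The difference of 4.26 ± 2.52 kb (SE, n = 2 each) did not pass limma (adjusted p = 0.321), and it was 1.05 kb without WT replicate 9 and 7.46 kb without WT replicate 7. The peak over the start was 19.2 and 26.6 kb long in Kdm6b-cKO and 28.3 and 16.5 kb in the WT libraries, with no order between the groups.

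Further from the start, Gata2 had more cover in both Kdm6b-cKO libraries, as most genes did. Within 50 kb the cover was 67.6 and 63.0 kb in Kdm6b-cKO, against 50.9 and 32.9 kb in the WT libraries. Within 100 kb it was 83.1 and 79.5 kb in Kdm6b-cKO, against 59.96 and 37.2 kb in the WT libraries. At both distances the groups did not overlap, an order found at 70% of the windows of 50 kb to each side and at 74.8% of those of 100 kb. The ratios of the means, 1.56 and 1.67, were below the 1.71 and 1.75 of the cover summed over all windows of those widths, and WT replicate 9 was the lowest.

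Gata3, the T cell and ectodermal factor, was the member whose cover within 25 kb was lower in both Kdm6b-cKO libraries. It lies on the minus strand of chromosome 2 from 9857078 to 9890034. Within 25 kb of its 5′ end, peaks covered 35.4 and 33.1 kb in Kdm6b-cKO replicates 3 and 4, against 36.6 and 36.0 kb in WT replicates 7 and 9. Both Kdm6b-cKO libraries were below both WT libraries, an order seen at 1.67% of windows, where limma called 0 of 11829 windows lower (0%) and 17 had an unadjusted p under 0.05. The difference of -2.06 ± 1.10 kb (SE, n = 2 each) did not pass (limma adjusted p = 0.283). With each library centred on its mean over all windows, the difference was -6.11 kb and passed (adjusted p = 0.0132). That centring turned the calls over all windows to 1430 higher and 407 lower, against 910 higher and 0 lower without it. The domain was of like extent in all libraries, with 32.2 kb of the window covered in all 4, none in Kdm6b-cKO alone and 0.823 kb in both WT libraries alone.

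Inside this domain a short break lay at the start of the principal Gata3 transcript, whose promoter sequence is shown above. The 5′ end of the gene record belongs to another transcript and lies 11.4 kb upstream of it. The break ran for 1.60 and 1.83 kb in Kdm6b-cKO replicates 3 and 4, against 1.58 and 1.09 kb in WT replicates 7 and 9. It began 10.04 and 9.96 kb from the 5′ end in Kdm6b-cKO and 10.2 and 10.1 kb in the WT libraries, so its upstream edge lay at nearly the same place in all 4. The principal start fell inside the break in both Kdm6b-cKO libraries and in WT replicate 7. In WT replicate 9 the downstream peak reached further, and the start lay 267 bp inside it. The cover within 3 kb of the principal start, given above, was lower in both Kdm6b-cKO libraries, and the difference did not pass limma (adjusted p = 0.489). Every other transcript start annotated for the 5 genes lay inside a peak in all 4 libraries.

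**Figure D3:**
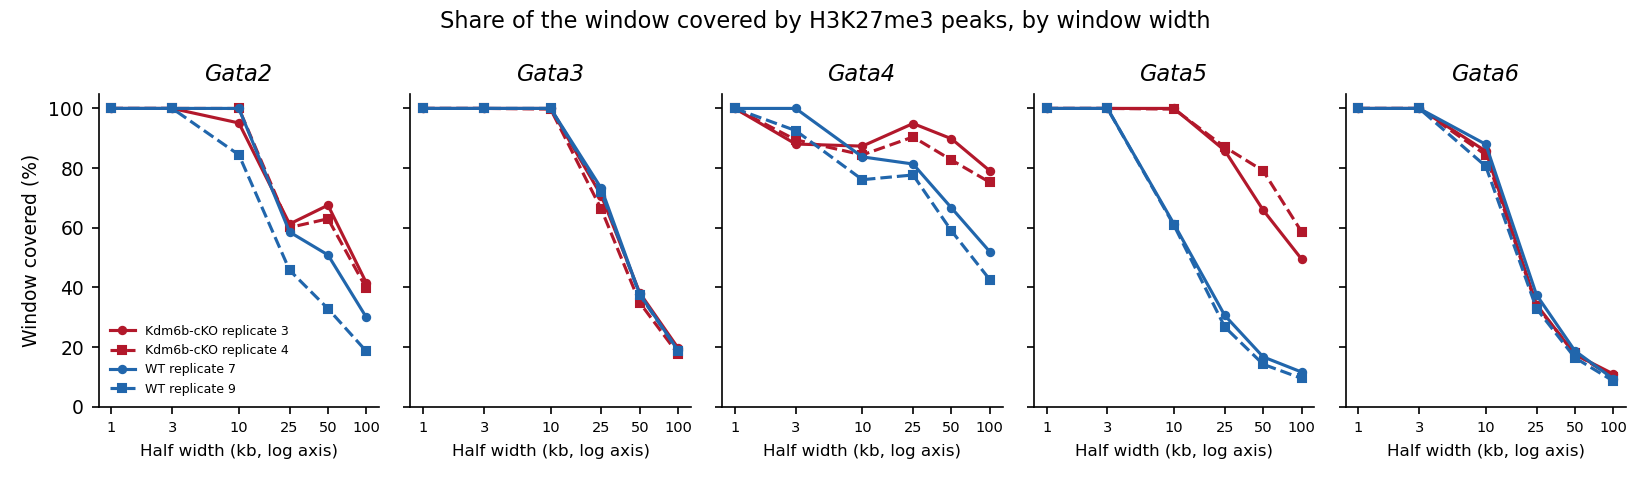
Share of the window covered by H3K27me3 peaks (%) against the distance from the 5′ end to each edge of the window (kb, log axis), for each gene and library. The Gata5 lines part beyond 3 kb, with 99.1 and 117.4 kb covered in Kdm6b-cKO and 23.3 and 19.1 kb in the WT libraries within 100 kb, whereas the lines of Gata3 and Gata6 lie close together at every distance.

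Summed over the 5 genes, cover within 25 kb was 173.6 and 168.8 kb in Kdm6b-cKO, against 140.7 and 127.6 kb in the WT libraries. Both Kdm6b-cKO sums were higher, with means of 171.2 ± 3.39 kb and 134.1 ± 9.25 kb (SD, n = 2 each) and a ratio of 1.28. A two-sided exact permutation test gave p = 0.333, which is the smallest p that 2 libraries against 2 allow. Without Gata5 the sums were 130.6 and 125.3 kb in Kdm6b-cKO, against 125.3 and 114.2 kb in the WT libraries, and the means differed by 8.17 kb. Gata5 thus held most of the summed difference of 37.1 kb. Over the 5 windows 3 had both Kdm6b-cKO values higher, 1 had both lower and 1 overlapped, where over all windows 65.3% had both higher and 1.67% both lower. Their median difference was 4.26 kb against 2.41 kb over all windows tested. In WT each Gata window already held more cover than at least 86.6% of the windows tested. The ratio of 1.28 over the 5 genes, and of 1.07 without Gata5, was below the 1.78 of all covered bases on the autosomes and X.

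**Figure D4:**
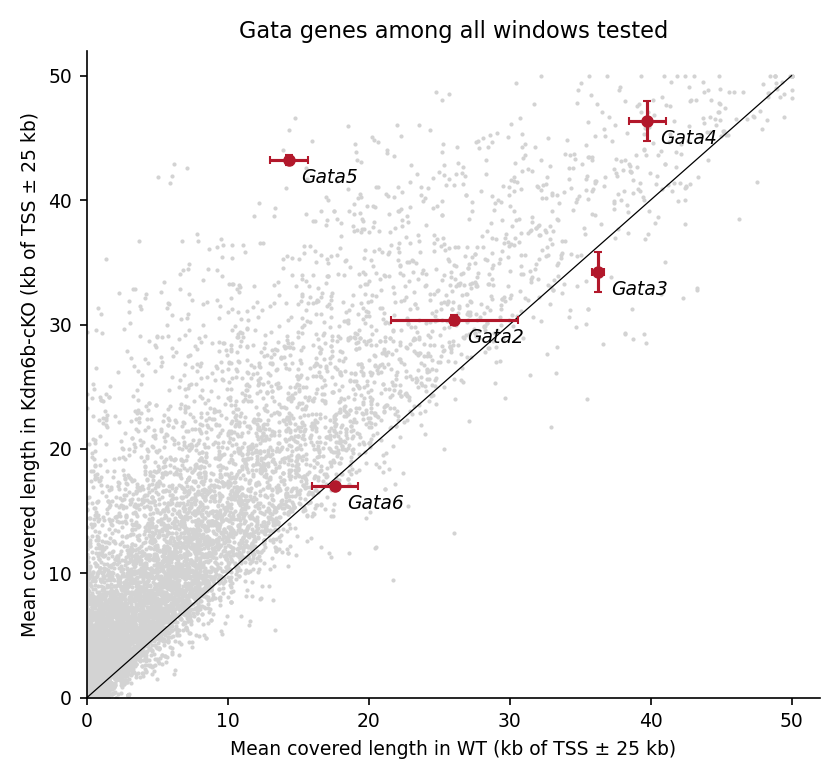
Mean covered length within 25 kb of the start in Kdm6b-cKO (vertical axis, kb) against WT (horizontal axis, kb). Grey points are the other genes among the 11829 windows tested, red points are the 5 Gata genes with SD bars (n = 2 each), and the line marks equal cover. Gata5 stands at 43.2 kb in Kdm6b-cKO and 14.35 kb in WT, far above the line. Gata2 and Gata4 lie above it, Gata3 lies below it and Gata6 lies next to it.

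The genes also differed in the CpG content of their promoters, which Polycomb domains are known to follow. Gata6 had 54.2 CpG per kb within 3 kb of its start, more than 99.4% of all promoters. Gata2 had 35.3, Gata5 had 31.0, Gata3 had 20.3 and Gata4 had 19.3, against a median of 18.0 over 21728 promoters. These values are for the 5′ end of each gene. The principal start lies 11.4 kb from it at Gata3 and 26.4 kb from it at Gata4. CpG within 3 kb of those principal starts was not counted, and the Gata3 window of 300 bases there holds 22 CpG. Within the Gata5 window, bases covered in all 4 libraries had 21.5 CpG per kb, those covered only in both Kdm6b-cKO libraries had 11.6 and those covered in none had 9.75. The gained bases were thus poorer in CpG than the bases covered in all 4. In the Gata4 window the bases covered in all 4 libraries had 16.3 CpG per kb those covered in both Kdm6b-cKO libraries alone 9.17 and those covered in none, 1.02 kb in all, 15.7. In the Gata2 window these values were 31.8, 5.28 and 7.102. At Gata2 and Gata4 the gained bases were poorer in CpG than the bases never covered, and at Gata5 they were not. Bases next to each other are not independent, so no test was made.

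Near Gata5 and Gata2, some promoters of neighbouring genes were covered over more length in Kdm6b-cKO as well. The promoter of Rbbp8nl, whose start lies 44.8 kb downstream of that of Gata5, was covered over 89.5% and 89.55% in Kdm6b-cKO, against 0% in both WT libraries. It was called higher in Kdm6b-cKO, with a difference of 89.5 ± 0.715 percentage points (SE, n = 2 each, limma adjusted p = 0.00573). Cables2 and the ribosomal protein gene Rps21, which lie further on the same side, had no cover in any library. The promoter of Dnajb8, a chaperone gene 28.4 kb downstream of the start of Gata2, was covered over 100% in both Kdm6b-cKO libraries, against 16.5% and 14.3% in WT. It was also called higher, with a difference of 84.6 ± 1.19 percentage points (SE, limma adjusted p = 0.00964).

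Non-coding neighbours were not part of the test across protein-coding genes. Upstream of Gata5, the promoter span of Mir1a-1, a microRNA of heart and skeletal muscle, was covered over 100% in both Kdm6b-cKO libraries, against 81.2% and 73.75% in WT. That of its partner Mir133a-2 was covered over 29.7% and 77.2% in Kdm6b-cKO, against 0% in both WT libraries. The antisense gene Gata5os was covered over 100% in both Kdm6b-cKO libraries, against 77.25% and 82.9% in WT. In each of these the groups did not overlap, an order seen at 49% of the protein-coding promoters tested. The start of Gata5os lies 1.84 kb from that of Gata5, so their spans overlap. Upstream of Gata4, Gm49390 had 100% and 82.85% in Kdm6b-cKO, against 42.4% and 9.32% in WT. Gm5463 there had 100% and 82.2% in Kdm6b-cKO, against 59.8% and 42.1% in WT. Around Gata3, Gm13256 had the reverse order and the groups overlapped at Gm13262. Near Gata4, the promoter of the DNA repair gene Neil2 had 18.9% and 8.10% in Kdm6b-cKO and 0% in both WT libraries (limma adjusted p = 0.255), and that of Fdft1, which encodes squalene synthase, had no cover in any library. No other protein-coding gene starts within 100 kb of Gata6.

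Genes with a like pattern were sought by the summed absolute difference in covered length within 25 kb over the 4 libraries. For Gata5 the nearest were Gm14685 on the X chromosome, at 3.15 kb, and Rims4, at 4.93 kb. Rims4 had 47.1 and 44.2 kb in Kdm6b-cKO, against 15.3 and 13.45 kb in the WT libraries. For Gata4 they were the brain regulator Lmx1a, at 3.59 kb, and the blood regulator Lmo2, at 4.61 kb. For Gata2 they were Mpzl3 and Olfr222, at 1.81 and 2.19 kb, and for Gata6 they were Sumf1 and Zfp511, at 1.79 and 2.02 kb. For Gata3 they were its own neighbours 9230102O04Rik and 4930412O13Rik, at 0 and 3.30 kb, whose windows overlap its own.

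The other genes with a GATA-type zinc finger were set beside them. Of 10 such genes 2 promoters and 5 windows passed the minimum of 500 bp. Over all genes, 28.8% of promoters and 54.4% of windows passed it. None of the 10 was called in either direction, where 7.93% of promoters and 7.69% of windows tested were called higher. With so few tested, the lack of calls does not set them apart. Gata1, the red blood cell factor on the X chromosome, had 4.19 and 6.61 kb within 25 kb of its start in Kdm6b-cKO, against 0 and 0.358 kb in the WT libraries (difference 5.22 ± 1.13 kb, SE, n = 2 each, limma adjusted p = 0.0794). Both Kdm6b-cKO libraries were higher, an order seen at 65.3% of all windows tested. The level was far below that of the autosomal genes. Zfpm1 and Zfpm2 encode the FOG proteins that bind Gata factors, and their promoters had no cover in any library.

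Genes that work with Gata factors were counted by tissue, against 7.93% of promoters and 7.69% of windows called higher over all genes tested. Of 11 blood and endothelial partners, 7 promoters were tested and Lmo2, Erg and Kit were called higher, and 9 windows were tested and Spi1 was called higher. The Erg promoter, of an endothelial ETS factor, was covered over 100% in both Kdm6b-cKO libraries, against 76.5% and 71.8% in WT (difference 25.9 ± 2.21 percentage points, SE, n = 2 each, limma adjusted p = 0.0421). The median difference over the 9 windows was 3.80 kb. Of 10 T cell and type 2 genes, Il4 and Tcf7 were called higher among 6 promoters and Tcf7 among 9 windows. Tcf7, which encodes the T cell factor TCF1, had 20.8 and 22.4 kb within 25 kb in Kdm6b-cKO, against 9.66 and 5.27 kb in the WT libraries (difference 14.2 ± 1.89 kb, SE, limma adjusted p = 0.0456). The windows of Il4 and Il13 overlap and held the same cover.

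The heart, endoderm and gonad partners of Gata4, Gata5 and Gata6 were read against the same 7.93% of promoters and 7.69% of windows. Of 10 cardiac genes 8 promoters were tested and none was called, but 5 of these were full in all 4 libraries and could not gain. Among 9 cardiac windows tested, Myh6 and Nppa were called higher. Myh6 encodes a cardiac myosin heavy chain, and its window held 43.3 and 41.9 kb in Kdm6b-cKO, against 11.4 and 2.77 kb in the WT libraries (difference 35.5 ± 3.40 kb, SE, n = 2 each, limma adjusted p = 0.0348). The cardiac regulator Nkx2-5 was not called, with 42.8 and 39.3 kb in Kdm6b-cKO, against 43.5 and 41.5 kb in the WT libraries (adjusted p = 0.568). The median difference over the 9 cardiac windows was 0.149 kb. Of 9 endoderm genes all were tested at both widths, 6 promoters were full in all 4 libraries, and Hnf4a was called higher at both widths. Hnf4a, a liver and gut regulator, had 22.9 and 23.55 kb in Kdm6b-cKO, against 7.51 and 4.02 kb in the WT libraries (difference 17.4 ± 1.496 kb, SE, limma adjusted p = 0.0325). Of 6 gonad genes 5 promoters and 5 windows were tested, and the window of Amh, the anti-Müllerian hormone gene, was called higher. No gene of these lists was called lower at either width.

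The Sox and T-box families, which also encode developmental transcription factors, were set beside the Gata genes. Of 18 Sox genes 14 promoters were tested and none was called, and 8 were covered over 100% in all 4 libraries. Sox8 and Sox13 were called higher among 16 Sox windows, where the median difference was 4.31 kb. Of 15 T-box genes 11 promoters were tested and none was called, and 6 were covered over 100% in all 4 libraries. Tbx10 was called higher among 12 T-box windows, where the median difference was 2.13 kb. The called share was 1 of 5 Gata windows, 2 of 16 Sox windows and 1 of 12 T-box windows, against 7.69% over all windows. Over all promoters tested 7.93% were called higher. No difference between families was tested.

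Markers of other cell types differed in whether they carried the mark. Of 4 endothelial markers 1 promoter and 2 windows passed the minimum, with Pecam1 and Tek at 0 in all 4 libraries at both widths. Of 4 blood markers 3 promoters and 3 windows passed, with Ptprc at 0, and of 4 epidermal markers all passed at both widths. The blood marker Cd3e had 100% promoter cover in both Kdm6b-cKO libraries, against 66.7% and 47.0% in WT, and was not called (limma adjusted p = 0.125). Among the epidermal markers, Krt5 was called higher within 25 kb, with 7.76 and 6.89 kb in Kdm6b-cKO and none in either WT library (limma adjusted p = 0.0354). No blood or endothelial marker was called at either width. Over all genes tested, 7.93% of promoters and 7.69% of windows were called higher. With so few markers tested, the lack of calls does not set them apart. The part of other cell types in the cover of the Gata genes was not tested.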

How the data were processed

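Per the labels and the study's methods, dermal fibroblasts were fixed with formaldehyde, their chromatin was digested with an enzymatic kit, and H3K27me3 ChIP libraries were sequenced. By the submitters' notes on processing, MACS2 2.2.7.1, deepTools 3.5.1, Bowtie2 2.3.5.1, SAMtools 1.9 and bcl2fastq were used with the build mm10. The authors subsampled the libraries to a like read number and called broad peaks in each library on its own (broad q cutoff 0.01). How the input entered the calling is not given in the sources used here, and the input was not used here. The deposited lists give peak positions with a fold ratio, a display score, a −log10 p and a −log10 q for each peak, as the authors' peak caller wrote them. The deposited fold ratio and −log10 q were used to describe peaks, and −log10 q also to rank and filter them. No deposited value is a read count.

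Peaks of 19 autosomes and the X chromosome were merged within each library, and the bases they cover were summed within 3 and 25 kb of the 5′ end of each GENCODE M21 gene. All peaks lay within the chromosome lengths of GRCm38.p6. No list was a copy of another, and the bases shared by a pair of lists were 36.8% to 61.2% of those covered in either. Of 21755 gene records, 27 repeats of a symbol were left out. Groups follow the sample titles. Genes with at least 500 bp covered in at least 1 library (6251 and 11829) were fitted with limma 3.58.1 (lmFit and eBayes, R 4.3.3), with Benjamini-Hochberg adjustment over all of them and a threshold of 0.05. The fit was tested on simulated data. Sums over the genes were tested by exact permutation of the 6 possible arrangements, two-sided. Cover is bounded at both ends, so a full promoter cannot gain. Python 3.11.15, numpy 2.4.6, pandas 2.3.3 and matplotlib 3.10.9 were used.

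Named genes were the 5 Gata genes, up to 4 of each list with the largest absolute difference within 25 kb, the 2 genes most like each Gata gene, neighbours within 100 kb and Kdm6b. Kit and Col1a1, Col3a1 and Dcn were named outside this rule after their values were seen. The Gata genes, the lists and the tests were chosen with earlier results of these data known. Alternatives were other peak sets, starts, centring, filters and the omission of each library.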

Additional observations from a re-analysis of the deposited data

How the results depend on the processing

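No paired analysis was possible because the Kdm6b-cKO and WT libraries share no replicate number. Over 12 alternatives the difference at Gata5 within 25 kb stayed positive and passed limma in 7. It lost the threshold with all genes kept in the test (28.9 kb, adjusted p = 0.0552) and with lists of equal covered length (9.24 kb, adjusted p = 0.0674), where fewer windows were tested. Over the omissions of single libraries it was 27.9 to 29.9 kb, and it lost the threshold without Kdm6b-cKO replicate 3, Kdm6b-cKO replicate 4 or WT replicate 9. Gata3 stayed negative in all 12, from -6.11 to -0.914 kb, and passed only with each library centred on its mean (-6.11 kb, adjusted p = 0.0132). The cause was not tested. Gata2 and Gata4 stayed positive and passed in none, with Gata2 at 0.20 kb after centring, and none of the 5 promoters passed under any alternative. Gata6 ranged from -1.75 to 0.556 kb over the omissions and turned positive without WT replicate 7, and after centring it was -4.65 kb (adjusted p = 0.0506). The sum over the 5 genes stayed positive throughout, from 12.9 to 43.6 kb.

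Counts of windows called higher were 910 in the test as reported, 178 with no filter, 1430 after centring, 354 with equal numbers of peaks, 68 with equal covered length and 277 with −log10 q of at least 3. They ran from 0 to 647 over the omissions, and were 0 without Kdm6b-cKO replicate 3, Kdm6b-cKO replicate 4 or WT replicate 9, where limma gave 3065, 3808 and 2428 at an unadjusted p under 0.05. Windows called lower were 0 as reported, 3 with no filter, 407 after centring, 1 with equal numbers of peaks, 39 with equal covered length and 0 in every omission. Promoters called higher were 496 as reported, 151 with no filter, 133 with equal covered length and 0 to 1419 over the omissions, the 0 without WT replicate 9. Promoters called lower were 6 as reported, 1 with no filter, 58 after centring, 16 with equal numbers of peaks, 78 with equal covered length and 0 to 70 over the omissions. Without 1 library the other library of its group is alone and is assumed to vary like the other group.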
